A study of Mus musculus with 59 samples.

Results

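Ppcs, Klhdc9, Hs3st1, Tpst2, Marc2, Arhgef15, Gpr22 and Eif5 are 8 genes outside the circadian clock. Averaged over the times of each phase, their transcript levels were higher in the light phase than in the dark phase in mouse medial prefrontal cortex. This did not hold time by time for Marc2 and Tpst2, whose means at ZT14 were above those at ZT2 and ZT6. The 8 genes were chosen by name, from the outcome of a 24 h cosine fitted to these same libraries. They are 8 of the 4484 genes in the table and 8 of the 4273 that were tested. Their peak times, amplitudes and differences between times are therefore given as a description; the calls of the rhythm fit are stated once, to show where the threshold fell, and support nothing. The tissue was homogenate from adult wild-type C57BL/6J mice, an inbred strain, with no other allele or agent named for any group. Mice of both sexes were killed every 4 h, at zeitgeber times (ZT) 2, 6, 10, 14, 18 and 22. The 12 groups of time by sex held 5 libraries each, except ZT10 females with 4, which makes 59 libraries. ZT0 is lights on by convention and ZT12 to ZT24 is called the dark phase here, although the light schedule is not given in the sources used here.

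Daily rhythms of transcripts come partly from the circadian clock, a loop in which transcription factors switch on their own repressors, and partly from feeding, temperature, sleep and wake. In cortex of nocturnal mice the light phase is the main period of sleep. The 8 genes belong to unrelated pathways. Ppcs (phosphopantothenoylcysteine synthetase) makes an intermediate of coenzyme A, the carrier of acyl groups in metabolism, from vitamin B5. Marc2, whose later symbol is Mtarc2, encodes a molybdenum-containing reductase of the outer mitochondrial membrane. Hs3st1 adds sulfate to heparan sulfate, a sugar chain of cell-surface proteoglycans. Tpst2 adds sulfate to tyrosines of secreted and membrane proteins in the Golgi. Gpr22 encodes an orphan G protein-coupled receptor, that is, one with no settled ligand. Arhgef15, also called ephexin-5, activates small GTPases and is known from excitatory synapse formation and from blood vessels. Eif5 encodes the GTPase-activating protein that acts in start codon recognition by the ribosome, and Klhdc9 encodes a protein with kelch repeats.

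All 8 are protein-coding genes, given here in GRCm38 with the GENCODE M21 annotation. Ppcs (ENSMUSG00000028636) lies on chromosome 4 from 119418530 to 119422420, minus strand. Klhdc9 (ENSMUSG00000045259) lies on chromosome 1 from 171358446 to 171360798, minus strand. On the same chromosome Marc2 (ENSMUSG00000073481) runs from 184813068 to 184846451, minus strand. Chromosome 5 holds Hs3st1 (ENSMUSG00000051022), from 39613935 to 39755475 on the minus strand, and Tpst2 (ENSMUSG00000029344), from 112276691 to 112315361 on the plus strand. Arhgef15 (ENSMUSG00000052921) lies on chromosome 11 from 68943155 to 68957480, minus strand. Chromosome 12 holds Gpr22 (ENSMUSG00000044067), from 31706867 to 31713947 on the minus strand, and Eif5 (ENSMUSG00000021282), from 111538016 to 111546752 on the plus strand. Of the exonic bases of Klhdc9, 535 (34.3%) overlap Pfdn2 on the other strand, and 1.86% of those of Eif5 overlap the small nucleolar RNA Snora28 on the same strand. The strand setting of the counting is not given in the sources used here, so Klhdc9 values may hold Pfdn2 reads.

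Promoters are shown for Ppcs, Klhdc9 and Gpr22, the genes whose first start site had a match to any motif searched. The RefSeq promoter table (GRCm38.p6) had an entry for 7 of the 8 genes, with 10 start sites, and the 250 bases before each start were searched on both strands. The motifs were the clock elements CACGTG (E-box), CACGTT, TTATGTAA (D-box) and AGGTCA (bound by the ROR and REV-ERB receptors), the cAMP response element TGACGTCA and the shorter TGACGT, which lies inside it, the heat shock core GAANNTTC, and the general promoter motif CCAAT. Each is printed 5′ to 3′ on the gene's strand, in lower case, with the matches on either strand in capitals.
Ppcs: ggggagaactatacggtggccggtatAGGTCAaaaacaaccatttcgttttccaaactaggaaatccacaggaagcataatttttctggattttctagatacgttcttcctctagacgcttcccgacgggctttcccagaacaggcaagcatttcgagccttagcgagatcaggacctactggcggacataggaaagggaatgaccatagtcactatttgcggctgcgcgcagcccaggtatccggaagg
Klhdc9: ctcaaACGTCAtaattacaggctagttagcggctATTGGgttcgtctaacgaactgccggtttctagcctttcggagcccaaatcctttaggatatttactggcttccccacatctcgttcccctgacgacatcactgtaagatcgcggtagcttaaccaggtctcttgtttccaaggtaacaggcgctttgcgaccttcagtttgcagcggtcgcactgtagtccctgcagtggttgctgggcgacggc
Gpr22: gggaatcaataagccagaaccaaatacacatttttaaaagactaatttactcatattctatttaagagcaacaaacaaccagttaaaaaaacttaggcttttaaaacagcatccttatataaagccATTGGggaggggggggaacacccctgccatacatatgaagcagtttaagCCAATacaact
The Ppcs window is chr4:119422421-119422670. Its AGGTCA lies 224 to 219 bases before the start, and 14% of the 32536 promoters of this length hold that motif. The Klhdc9 window is chr1:171360799-171361048. It holds ACGTCA, which is TGACGT on the other strand and occurs in 6.5% of promoters, and ATTGG, which is CCAAT on the other strand and occurs in 33.8%. The Gpr22 stretch, chr12:31713948-31714133, lies inside the gene Cog5, which runs on the plus strand. It is the first 186 of the 250 bases, as the last 64 fall in the annotated first exon, and it holds 2 of the 3 CCAAT matches of the window. CCAAT was also matched once at each of the 2 alternative start sites of Tpst2. No motif was matched at the first start site of Tpst2 or in the windows of Hs3st1, Marc2 and Eif5. For comparison, CACGTG occurs in 6.04% of promoters, CACGTT in 3.87%, TTATGTAA in 0.811%, TGACGTCA in 1.56% and GAANNTTC in 6.72%. A match is a description of letters, not evidence of binding.

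Libraries held 6317420 to 13325019 recovered reads (median 9015221). Noncoding RNAs made up the 6 most abundant genes and took 61.4% to 91.2% of these reads, so that the other genes shared between 1009789 and 4253935 reads per library. Their mean share lay between 75.5% and 78.5% at the 6 times. The titles carry serial numbers from 1 to 60, with 54 absent, and each run of 12 numbers held every group once where complete. The 11 libraries numbered 49 to 60 stood apart from the other 48 across the table, so values with and without them are given below. Whether each library came from its own mouse is not stated, and the p-values reflect only how much these libraries vary. Cortical neuron markers were high, with mean log2 values of 14.86 for the vesicular glutamate transporter gene Slc17a7 and 11.07 for the GABA synthesis gene Gad1.

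Values are log2 of a scaled read count plus 1. Between genes, levels are compared only per kilobase of exon, as the median number of scaled reads over the 59 libraries. By that measure Gpr22 (780, from 580 to 1011) and Eif5 (646, from 546 to 765) were the most abundant of the 8, and their ranges overlapped. Marc2 followed with 249 (160 to 353), below every library of Gpr22 and Eif5. Hs3st1 had 135.1 (60.2 to 227) and Tpst2 110 (64.9 to 179), with broad overlap. At the lower end were Ppcs with 64.4 (23.6 to 162), Klhdc9 with 49.3 (11.5 to 127.9) and Arhgef15 with 26.9 (13.5 to 45.5), whose ranges overlapped too. The depth behind single values differed accordingly. A library held a median of 25 unscaled reads of Klhdc9 (5 to 94), 32 of Ppcs (8 to 89) and 58 of Arhgef15. The medians were 95 for Hs3st1, 100 for Tpst2, 530 for Marc2, 1211 for Gpr22 and 1472 for Eif5 (759 to 2864). Counting error alone gave an SD of 0.31 on the log2 scale for Klhdc9 and 0.04 for Eif5. It made up 42% of the variance within groups for Arhgef15, 32.9% for Klhdc9, 32.5% for Tpst2 and 29% for Ppcs, but 7.11% for Gpr22 and 8.42% for Marc2. In homogenate, fewer cells of a type and less RNA per cell cannot be told apart.

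**Figure D1:**
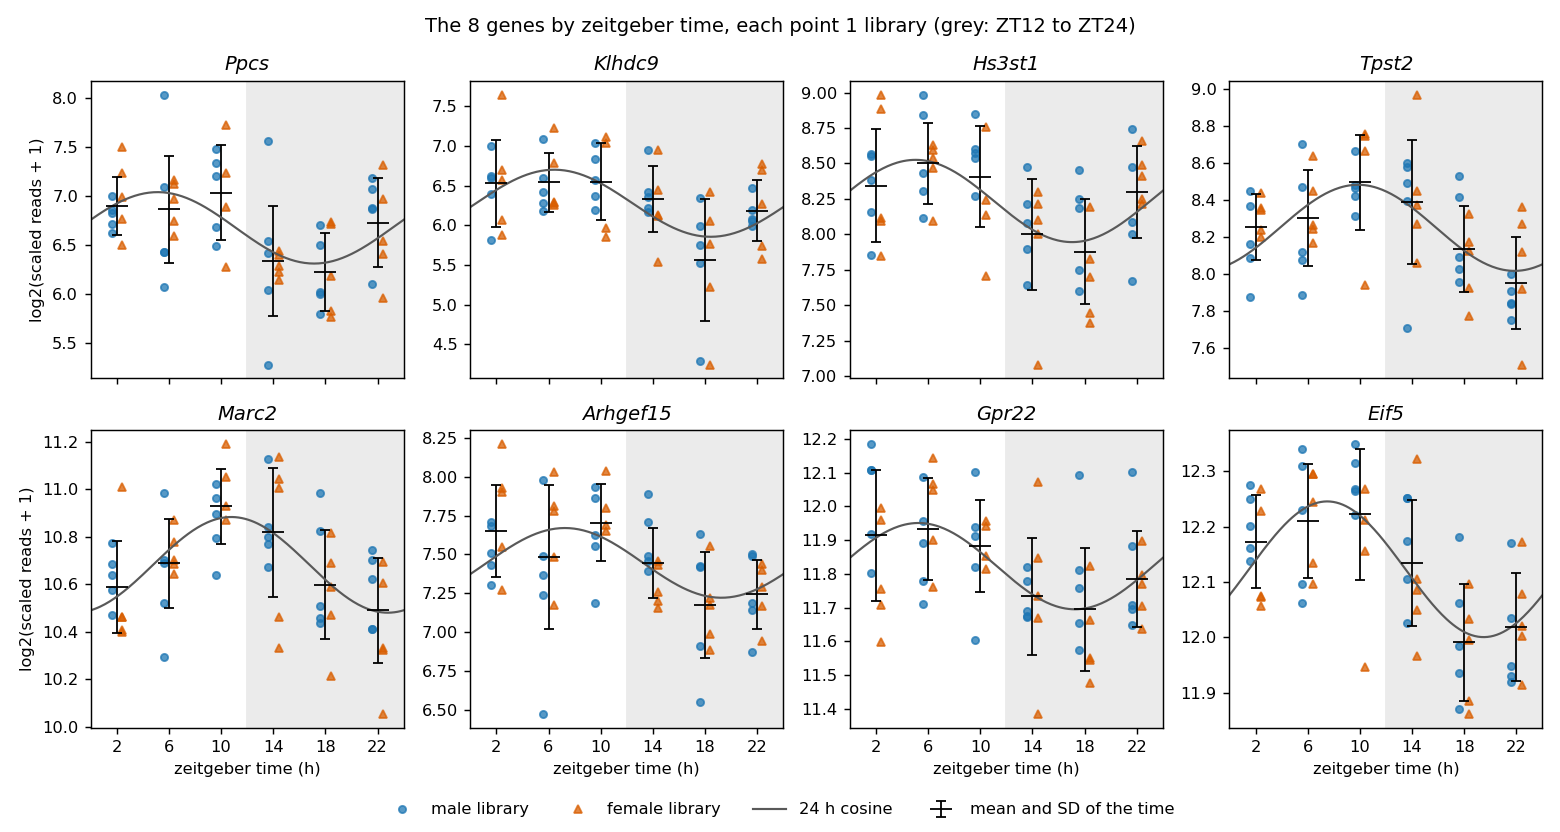
Log2 of scaled reads plus 1 (y axis, its own range for each gene) against zeitgeber time in hours (x axis) for the 8 genes; each point is 1 library (circles males, triangles females), black bars are the mean and SD of a time, the curve is the fitted 24 h cosine and grey marks ZT12 to ZT24. The curves peak between ZT5.04 and ZT10.8, the libraries of the highest and lowest times overlap for every gene, and the spread is widest for Klhdc9 at ZT18.

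The metabolic enzyme genes Ppcs and Marc2 both had their highest mean at ZT10, with different time courses around it. Ppcs had its highest mean at ZT10, 7.03 ± 0.48 (SD, n = 9), with libraries from 6.28 over a median of 7.21 to 7.72. Its lowest mean was at ZT18, 6.22 ± 0.40 (SD, n = 10), with libraries from 5.77 over 6.10 to 6.73. The groups overlapped: 6 of the 9 ZT10 libraries lay above every ZT18 library. Levels at ZT2 (6.90 ± 0.30, n = 10) and ZT6 (6.86 ± 0.54, n = 10) were close to that at ZT10. The low means were those at ZT14 (6.33 ± 0.56, n = 10) and ZT18. In the dark phase ZT22 was again higher, with a mean of 6.73 ± 0.46 (n = 10). Its median of 6.87 was level with those at ZT2 (6.84) and ZT6 (6.85), so high values were not confined to the light phase. The fitted cosine had an amplitude, from mean to peak, of 0.36 ± 0.09 (SE, n = 59), which is 1.66-fold from trough to peak, with the peak at ZT5.13.

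Marc2 was highest at ZT10 and lowest at ZT22, a later low point than that of Ppcs. At ZT10 its mean was 10.93 ± 0.16 (SD, n = 9), with libraries from 10.64 over 10.93 to 11.19. At ZT22 it was 10.49 ± 0.22 (SD, n = 10), from 10.05 over 10.51 to 10.74. Of the ZT10 libraries 8 of 9 lay above every ZT22 library, the clearest separation of the 8 genes. The level at ZT14, 10.82 ± 0.27 (n = 10), was above those of ZT2 (10.59 ± 0.19) and ZT6 (10.69 ± 0.19). Light-phase and dark-phase libraries therefore differed by 0.10 in their means, the least of the 8, although the fitted amplitude was 0.20 ± 0.04 (SE, n = 59), or 1.32-fold from trough to peak. Its fitted peak, at ZT10.8, was the latest of the 8 and close to the start of the dark phase.

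The 2 sulfotransferase genes also differed in the times of their highest and lowest means, a difference that was not tested. Hs3st1 was highest at ZT6, 8.50 ± 0.29 (SD, n = 10), with libraries from 8.10 over 8.50 to 8.99. It was lowest at ZT18, 7.88 ± 0.37 (SD, n = 10), from 7.37 over 7.79 to 8.45. In each of these groups 6 of 10 libraries lay outside the range of the other. Its mean at ZT10, 8.41 ± 0.36 (SD, n = 9), was close to that at ZT6, and its ZT10 median of 8.54 was the higher. The amplitude was 0.29 ± 0.07 (SE, n = 59), or 1.50-fold, with the peak at ZT5.04. Tpst2 was highest at ZT10, 8.49 ± 0.26 (SD, n = 9), with libraries from 7.94 over 8.48 to 8.75. At ZT22 it was at its lowest, 7.95 ± 0.25 (SD, n = 10), from 7.51 over 7.91 to 8.36. Of the ZT10 libraries 7 of 9 lay above every ZT22 library, and the one at 7.94 lay well below the rest. The level at ZT14, 8.39 ± 0.34 (n = 10), was again close to that at ZT10. Its amplitude was 0.23 ± 0.05 (SE, n = 59), or 1.38-fold, with the peak at ZT9.86.

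Of the signalling genes, Gpr22 had a small and even change with time. At ZT6 its mean was 11.93 ± 0.15 (SD, n = 10), with libraries from 11.71 over 11.93 to 12.14. At ZT18 it was 11.70 ± 0.18 (SD, n = 10), from 11.48 over 11.66 to 12.09. Only 1 of the 10 ZT6 libraries lay above every ZT18 library, as a single ZT18 male reached 12.09, while 6 of the 10 ZT18 libraries lay below every ZT6 library. The amplitude was 0.13 ± 0.03 (SE, n = 59), or 1.19-fold, with the peak at ZT5.26.

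Arhgef15 was highest at ZT10, 7.70 ± 0.25 (SD, n = 9), with libraries from 7.19 over 7.69 to 8.04. The lowest mean was at ZT18, 7.17 ± 0.34 (SD, n = 10), with libraries from 6.55 over 7.20 to 7.63. Groups overlapped, with 6 of the 9 ZT10 libraries above every ZT18 library. The level at ZT6, 7.48 ± 0.46 (n = 10), lay below those at ZT2 and ZT10 and included the lowest library of all, a male at 6.47. An amplitude of 0.22 ± 0.06 (SE, n = 59), or 1.36-fold, was fitted, with the peak at ZT7.25.

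Eif5, of the translation machinery, had the smallest relative change and the tightest libraries. Its mean at ZT10 was 12.22 ± 0.12 (SD, n = 9), with libraries from 11.95 over 12.26 to 12.35. At ZT18 it was 11.99 ± 0.11 (SD, n = 10), from 11.86 over 11.99 to 12.18. Of the ZT10 libraries 7 of 9 lay above every ZT18 library, and 1 female at 11.95 lay among the ZT18 values. The amplitude was 0.12 ± 0.02 (SE, n = 59), or 1.18-fold, with the peak at ZT7.50. With libraries matched by sex and serial run, as a description only, ZT6 exceeded ZT18 in 10 of 10 matches, by a median of 0.18 (0.06 to 0.44).

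Klhdc9, the kelch-repeat gene, had the largest relative change and the fewest reads. ZT2, ZT6 and ZT10 had means of 6.53 ± 0.55 (n = 10), 6.54 ± 0.37 (n = 10) and 6.55 ± 0.48 (SD, n = 9), which differed by far less than their spread. The means at ZT14, 6.33 ± 0.41 (n = 10), and ZT22, 6.18 ± 0.38 (n = 10), were only somewhat lower. At ZT18 the mean was 5.56 ± 0.77 (SD, n = 10), with libraries from 4.24 over 5.76 to 6.42. A female at 4.24, with 6 unscaled reads, and a male at 4.29, with 5, were far below the rest. Of the 10 ZT18 libraries 6 lay below every ZT10 library. The amplitude was 0.42 ± 0.10 (SE, n = 59), or 1.80-fold, with the peak at ZT6.44. Leaving out any 1 library gave amplitudes from 0.37 to 0.44, but each such fit kept at least 1 of the 2 far-low ZT18 libraries.

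By this fit, 7 of the 8 genes passed an adjusted p of 0.05 for a 24 h rhythm (limma, Benjamini-Hochberg), against 81 of all 4273 genes tested (1.90%) and 21 that passed with a peak from ZT0 to ZT12 (0.491%). The rule used this contrast, so the share is not a result. It also depended on the processing: 0 of the 8 passed under scaling by library totals (adjusted p from 0.572), 3 without the libraries numbered 49 to 60 (Tpst2, Marc2 and Eif5), 5 with repeated animal numbers averaged, and 5 to 7 without single libraries (limma). The count over the table moved too, to 3 under library totals, 50 without libraries 49 to 60 and 74 to 96 without single libraries. Just inside the threshold was Ppcs, with an adjusted p of 0.0332 (limma). Just outside it was Arhgef15, with 0.0893 (limma), so Arhgef15 was not among those called. With the first 2 principal components as covariates all 8 passed, among 499 genes over the table. The median amplitude of the 8 genes was 0.23, beside 0.08 for all genes tested. In order of fitted peak came Hs3st1, Ppcs, Gpr22 and Klhdc9, from ZT5.04 to ZT6.44, then Arhgef15 and Eif5 at ZT7.25 and ZT7.50. Tpst2 and Marc2 came last. Differences in peak time between the genes were not tested. Libraries of the same sex and serial run were also matched into pairs 12 h apart, as a description. Libraries of 1 run were little alike (mean r of deviations 0.11), so these counts do not measure consistency within pairs. Between ZT2 and ZT14, Ppcs was higher at ZT2 in 9 of 10 pairs, while Tpst2 was in 3 and Marc2 in 1. Between ZT10 and ZT22, Marc2 was higher at ZT10 in 9 of 9 pairs, by a median of 0.33 (0.17 to 0.87), and Tpst2 in 8, by 0.56, while Hs3st1 was in 5. Klhdc9 and Hs3st1 were higher at ZT6 than at ZT18 in 9 of 10 pairs each, by medians of 0.95 and 0.62. Between ZT2 and ZT14, Klhdc9 was higher at ZT2 in only 5 of 10 pairs, by a median of 0.04, and Hs3st1 in 7, by 0.09. Klhdc9 was higher at ZT10 than at ZT22 in 7 of 9 pairs, by 0.34.

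**Figure D2:**
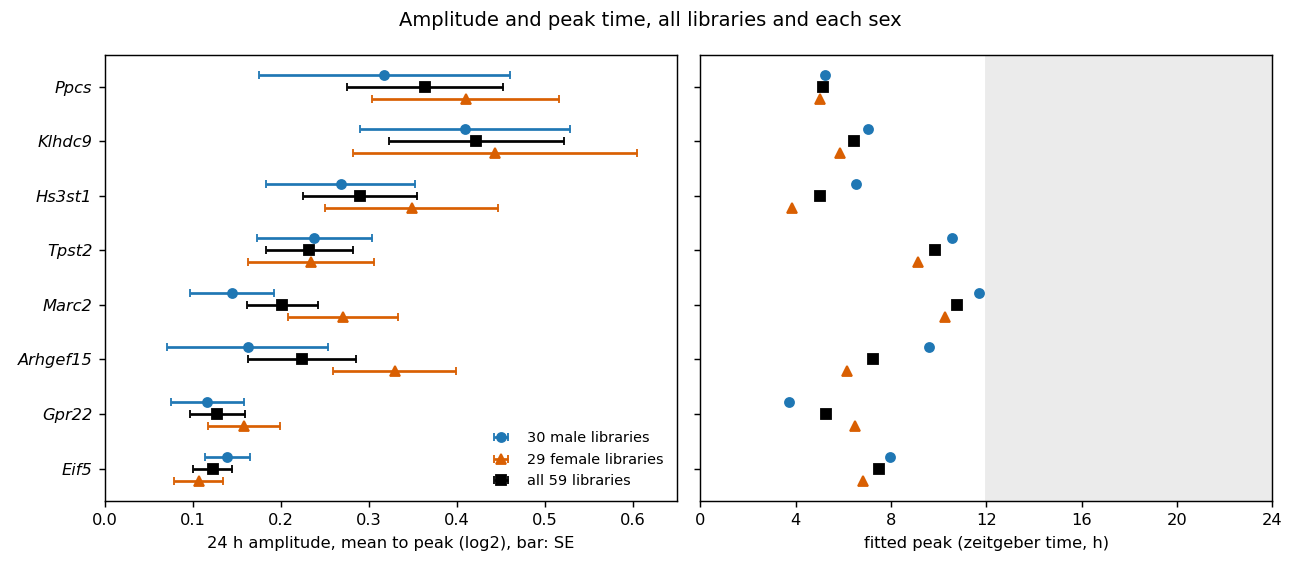
Left, fitted 24 h amplitude on the log2 scale with its SE; right, fitted peak in zeitgeber hours, for each gene (rows) in all 59 libraries (squares), 30 male (circles) and 29 female (triangles) libraries. All peaks lie before ZT12 in both sexes, from ZT3.70 (Gpr22 in males) to ZT11.7 (Marc2 in males), and the SE bars of the sexes overlap for 6 genes but not for Marc2 and Arhgef15.

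Male and female cortex were compared next. Fitted apart, every gene peaked between ZT0 and ZT12 in each sex. The genes were chosen by a fit over both sexes, which favours like timing in males and females. Likeness between the sexes is therefore no independent support. Ppcs had the most similar timing, with amplitudes of 0.32 ± 0.14 (SE) at ZT5.25 in 30 male libraries and 0.41 ± 0.11 at ZT5.04 in 29 female libraries. Arhgef15 had the widest difference in amplitude relative to its size, 0.16 ± 0.09 at ZT9.59 in males and 0.33 ± 0.07 at ZT6.16 in females. Marc2 had 0.14 ± 0.05 at ZT11.7 in males and 0.27 ± 0.06 at ZT10.3 in females. Hs3st1 peaked at ZT6.54 in males and ZT3.83 in females, and Gpr22 in the opposite order, at ZT3.70 and ZT6.49. None of these differences passed the test of the difference itself, the interaction of sex with the cosine and sine terms. It called 0 of the 8 genes (limma, adjusted p from 0.741 to 0.953), 0 at an unadjusted p under 0.05, and 0 with limma voom at either threshold. Among all genes tested it called 0 (0%), with 180 at an unadjusted p under 0.05 (4.21%), so a difference of rhythm between the sexes was not detectable in these libraries.

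Mean levels were similar in both sexes. The differences, female minus male, with time as a factor, ran from -0.10 for Hs3st1 (95% interval -0.28 to 0.09) to 0.07 for Arhgef15 (-0.10 to 0.24). The intervals were narrowest for Eif5, -0.04 (-0.10 to 0.02), and Gpr22, -0.05 (-0.14 to 0.04), and widest for Klhdc9, -0.02 (-0.30 to 0.25), and Ppcs, 0.01 (-0.23 to 0.26). Male and female libraries overlapped over most of their range for each gene, as for Hs3st1, from 7.60 to 8.99 in males and from 7.08 to 8.98 in females. Tpst2 had the higher mean in females at 5 of 6 times, with a difference of 0.06 (-0.07 to 0.20). The test called 0 of the 8 genes (limma, adjusted p 0.999 for each), 0 at an unadjusted p under 0.05 and 0 with limma voom at either threshold. Over all 4273 genes it called 1 (0.0234%), and 2.43% passed an unadjusted p under 0.05. That gene was the X-linked RNA helicase gene Ddx3x, higher in females by 0.30.

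The shape of the time courses was then set against a plain cosine, by a joint test of the 3 contrasts among the 6 times that a 24 h cosine leaves over. Of the 8 genes 0 departed from it (limma, adjusted p from 0.798 to 0.992), with 0 at an unadjusted p under 0.05 and 0 with limma voom at either threshold. Among all genes tested 0 did so (0%), and 185 at an unadjusted p under 0.05 (4.33%). A 12 h component fitted beside the 24 h one reached 0.23 for Klhdc9 and 0.20 for Ppcs, the genes with flat light-phase values, and 0.01 for Gpr22. With 6 times 4 h apart, these shapes were not distinguished from a cosine. The choice of genes by a cosine fitted to these libraries favours such shapes, so this outcome is no independent support for them.

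**Figure D3:**
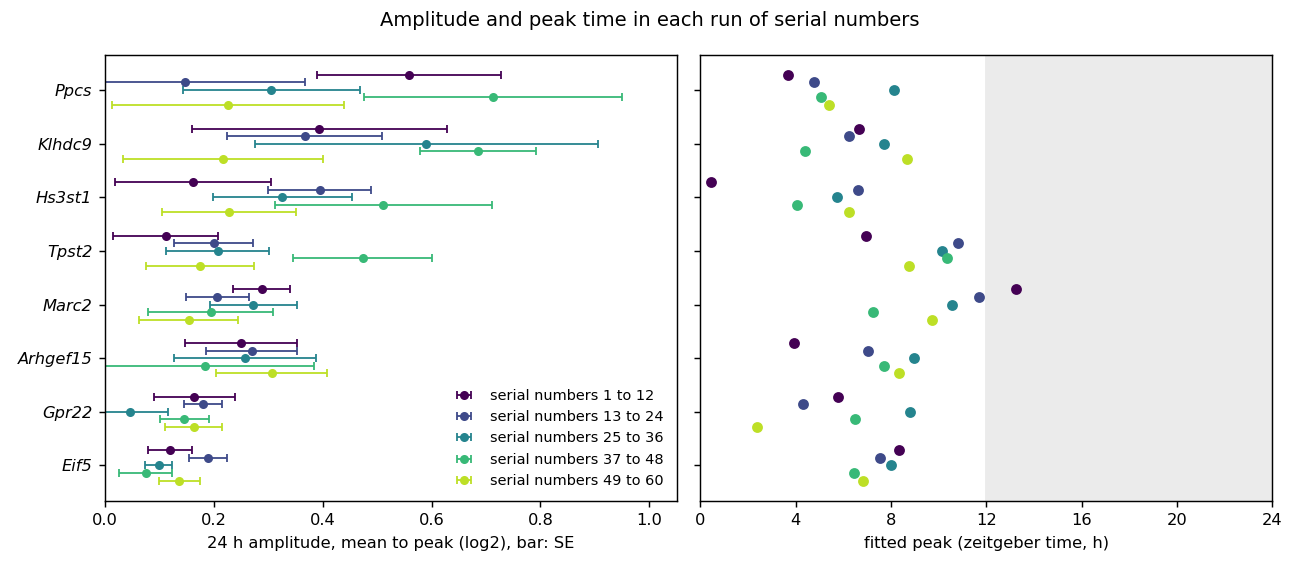
Left, fitted 24 h amplitude on the log2 scale with its SE (bars that reach below 0 end at the axis); right, fitted peak in zeitgeber hours, for each gene (rows) in each of the 5 runs of 12 serial numbers (colours; 12 libraries each, 11 in the last). Of the 40 peaks 39 lie before ZT12 and 1, Marc2 in the first run, lies at ZT13.2; the peaks of Eif5 stay within ZT6.45 to ZT8.34.

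Each run of 12 serial numbers samples the whole day once, which gives 5 small time courses. Eif5 was the steadiest, with peaks from ZT6.45 to ZT8.34 and amplitudes from 0.07 ± 0.05 to 0.19 ± 0.03 (SE). Klhdc9 peaked from ZT4.40 to ZT8.68, with amplitudes from 0.22 ± 0.18 to 0.69 ± 0.11. Ppcs ranged from 0.15 ± 0.22 to 0.71 ± 0.24. Peaks of Hs3st1 spread from ZT0.43 in the first run to ZT6.60 in the second, and those of Gpr22 from ZT2.39 to ZT8.80, the last with an amplitude of 0.05 ± 0.07. Tpst2 was largest in the fourth run, 0.47 ± 0.13 at ZT10.3. These runs belong to the libraries that chose the genes, so their likeness is no independent support. Without the libraries numbered 49 to 60, the 48 others gave 0.48 ± 0.12 for Klhdc9, 0.40 ± 0.10 for Ppcs, 0.31 ± 0.08 for Hs3st1, 0.24 ± 0.05 for Tpst2 and 0.21 ± 0.04 for Marc2. For Arhgef15, Gpr22 and Eif5 they gave 0.21 ± 0.07, 0.13 ± 0.03 and 0.12 ± 0.02, with peaks of the 8 genes from ZT4.82 to ZT11.0.

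The libraries numbered 49 to 60 were lower than the others in 2 of the 8 genes, Marc2 and Gpr22, and 0 of the 8 were higher (limma, with the 12 groups as covariates). Among all 4273 genes 1325 (31%) were lower and 982 (23%) higher, so the share among these 8 genes was not above the background. Marc2 had 10.48 ± 0.20 (SD, n = 11), from 10.05 over 10.46 to 10.78, against 10.73 ± 0.24 (SD, n = 48), from 10.21 over 10.70 to 11.19. The difference was -0.22 ± 0.07 (SE), and its adjusted p was 0.00463 by limma. Gpr22 had 11.68 ± 0.18 (SD, n = 11), from 11.39 over 11.66 to 12.11, against 11.86 ± 0.17 (SD, n = 48), from 11.48 over 11.83 to 12.19, a difference of -0.18 ± 0.05 (SE, adjusted p = 0.00349, limma). The ranges overlapped for both. Both directions hold on the deposited scaling and with the 6 most abundant genes left out of the totals, and flip when reads are scaled by library totals, to 0.19 for Marc2 and 0.24 for Gpr22, a scaling that moves the median of all genes from -0.05 to 0.35. Relative to that median both genes stayed lower. The other 6 genes did not pass, with Eif5 at -0.03 (95% interval -0.11 to 0.06) and Arhgef15 at 0.16 (-0.05 to 0.38). What sets these libraries apart was not tested.

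**Figure D4:**
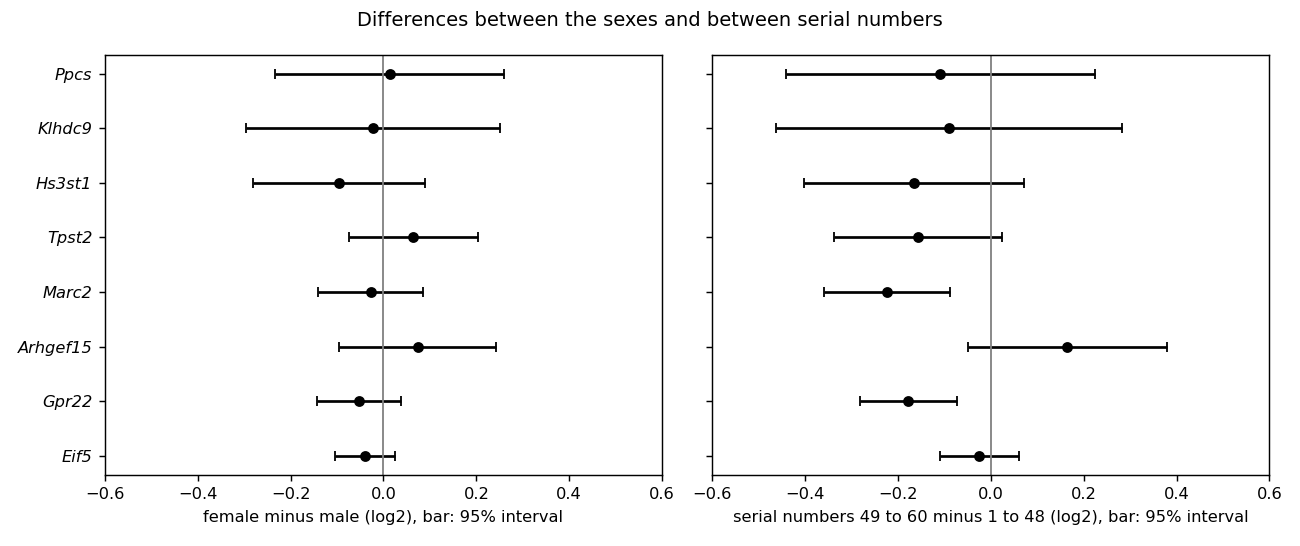
Log2 differences with 95% intervals for each gene (rows): left, female minus male; right, libraries with serial numbers 49 to 60 minus those with 1 to 48. All 8 intervals on the left include 0, and on the right those of Marc2 and Gpr22 lie below 0.

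Other genes of the same pathways gave a measure of how far the light-phase pattern extended. The 7 lists described, chosen with earlier results of these data known, held 52 other tested genes. Of these 0 passed for a 24 h rhythm (limma, background 1.90%), their median amplitude was 0.07, beside 0.08 over the table, and 25 had a fitted peak from ZT0 to ZT12, beside 50.6% of all genes. In coenzyme A synthesis Ppcdc, which acts on the product of Ppcs, had 0.14 ± 0.10 (SE) at ZT21.8, and Nudt19, a coenzyme A hydrolase, 0.03 ± 0.06. Tpst1, the other tyrosylprotein sulfotransferase, had 0.06 ± 0.05 at ZT21.0, in contrast to 0.23 for Tpst2, a difference that was not tested. Slc35b2, the Golgi transporter of the sulfate donor, had 0.19 ± 0.07 at ZT9.57 (adjusted p = 0.370, limma). Of the heparan sulfate genes, the polymerase gene Ext1 had 0.07 ± 0.04 at ZT8.08 and the epimerase gene Glce 0.06 ± 0.08. Cyb5r3, the reductase that passes electrons towards the MARC enzymes, had 0.03 ± 0.07, and the cofactor synthesis gene Mocs2 had 0.08 ± 0.04 at ZT6.40.

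Among the 12 other orphan receptors, Gpr162 came closest to the threshold, with 0.11 ± 0.03 at ZT7.70 (adjusted p = 0.0804, limma), while Gpr85 had 0.06 ± 0.05 at ZT21.4. In the kelch list, Klhdc3 had 0.02 ± 0.03 and Atrn 0.05 ± 0.07. Of 18 other translation initiation genes 11 had light-phase peaks. Eif1, which acts with Eif5 in start codon selection, had 0.06 ± 0.03 at ZT5.89, Eif1ax 0.05 ± 0.03 at ZT7.53, and Bzw1, a mimic of Eif5, 0.06 ± 0.03 at ZT13.0. Eif4ebp1, which encodes an inhibitor of the cap-binding factor Eif4e, had 0.24 ± 0.09 at ZT8.18 (adjusted p = 0.364, limma). For sex, for the interaction and for the departure from a cosine, 0 of the 52 passed (limma).

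Between the serial runs 11 of the 52 were higher in libraries 49 to 60 and 17 lower (limma, backgrounds 23% and 31%). Under scaling by library totals 22 were higher and 0 lower, and 11 of the 17 turned to values above 0. All 5 orphan receptors other than Gpr22 that passed were lower, Gpr3, Gpr19, Gpr34, Gpr75 and Gpr85, and 2 of these 5 turned to values above 0 under library totals. Eif3a at 0.85 and Eif4e at -0.40 lay on either side of Eif5.

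Cell type markers were looked at beside the time courses. The markers described were 23 tested genes, of which 0 passed for a 24 h rhythm (limma). Endothelial, mural, choroid plexus and blood cell markers were not analysed here, so for Arhgef15, a gene also known from endothelium, the vessel content of the libraries was not examined. Of the glutamatergic markers, Slc17a7 had an amplitude of 0.02 ± 0.04 and Fezf2 0.11 ± 0.08. GABAergic markers ranged from 0.0044 ± 0.06 for Slc32a1 to 0.44 ± 0.11 at ZT8.58 for the neuropeptide gene Crh (adjusted p = 0.0639, limma). The astrocyte receptor gene Fgfr3 had 0.24 ± 0.07 at ZT19.9 (adjusted p = 0.0961, limma), the largest of the 4 astrocyte markers. The others had amplitudes from 0.07 ± 0.11 to 0.12 ± 0.07, with peaks at ZT0.97, ZT10.4 and ZT22.3. The microglial gene P2ry12 had 0.11 ± 0.05 at ZT1.62. The part of cell composition in the time courses was not tested. In libraries 49 to 60, 8 of the 23 markers were higher and 3 lower (limma, backgrounds 23% and 31%). Slc17a7 was higher by 0.25 (adjusted p = 0.000413, limma). Of the GABAergic markers 3 were higher and 2 lower, Adarb2 at -0.46 and Crh at -0.49.

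**Figure D5:**
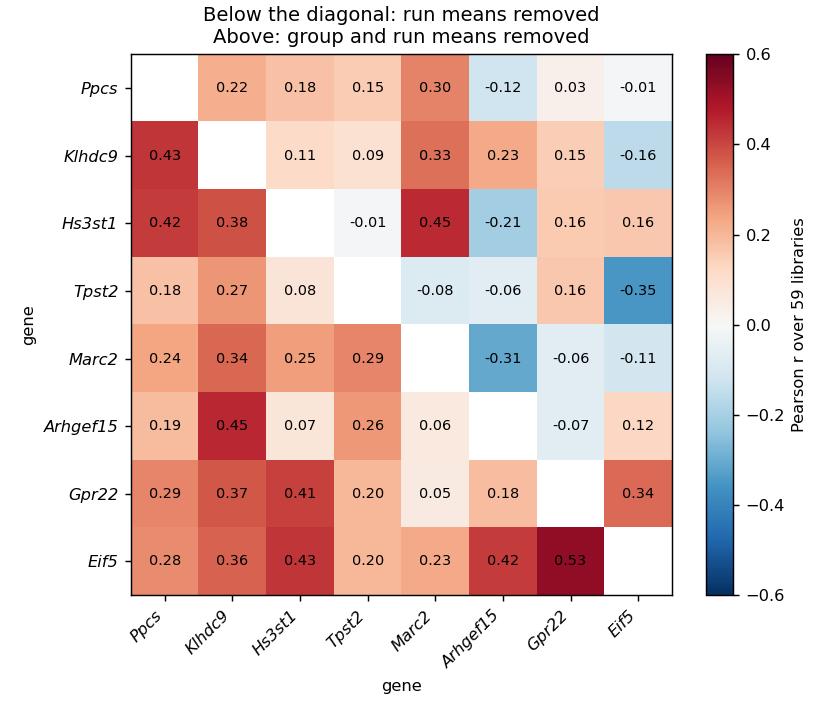
Pearson r over 59 libraries between the 8 genes (rows and columns); below the diagonal the mean of each serial run was removed, above it the means of group (time by sex) and run were removed. The median of the 28 pairs is 0.27 below the diagonal and 0.10 above it, where values run from -0.35 (Tpst2 and Eif5) to 0.45 (Hs3st1 and Marc2).

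Across libraries the 8 genes did not follow a single pattern. With the run means removed, the 28 pairs had a median Pearson r of 0.27 over 59 libraries, with 0.53 for Gpr22 and Eif5 the highest. With the group means removed as well, which takes out time and sex, the median was 0.10, beside 0.001 over all pairs of tested genes. Points share their library and its depth, and these values are a description. Hs3st1 and Marc2 then had the highest r, 0.45, and Gpr22 and Eif5 kept 0.34, while Tpst2 and Eif5 had -0.35 and Marc2 and Arhgef15 -0.31.

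The genes most like each member were found by Pearson r over the 59 libraries with run means removed. Marc2 was closest to Mtch1, of a mitochondrial outer membrane protein (0.69), and Sdhc, a subunit of succinate dehydrogenase (0.68), with r of 0.68 and 0.71 once the group means were removed too. Ppcs was closest to Tomm40l, a relative of the mitochondrial import pore gene Tomm40 (0.62), and Txn2, mitochondrial thioredoxin (0.61). For Klhdc9 they were Mpv17l2 (0.59) and Fem1c (0.58). Hs3st1 was nearest to Grm3, a metabotropic glutamate receptor gene (0.58), and Lrfn5, a synaptic adhesion gene (0.57). Gpr22 was nearest to Spcs3, of the signal peptidase (0.56), and Csnk1a1, a casein kinase gene (0.55). Tpst2 had Mbtps2, a Golgi protease gene (0.50), and Ptprr (0.47), and Arhgef15 had Klhdc9 (0.45) and Zfp653 (0.44). For Eif5 they were Exd2 (0.55) and Hnrnpdl, an RNA-binding protein gene (0.54). The likeness of these to Eif5 lay largely between groups, as r was 0.23 and 0.25 with the group means removed. Hnrnpdl itself peaked at ZT10.0 with an amplitude of 0.29 ± 0.03 (SE, n = 59). With the group means removed, r also fell to 0.23 for Arhgef15 and Klhdc9, both chosen by the same fit over time. For Tpst2 it was then 0.36 with Mbtps2 and 0.35 with Ptprr. The remaining pairs ran from 0.38 (Arhgef15 and Zfp653) to 0.71 (Marc2 and Sdhc).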

How the data were processed

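RNA from homogenate medial prefrontal cortex was sequenced as 59 libraries. Per the labels' protocols, RNA came from a Qiagen RNeasy Plus Micro kit and libraries from a Takara SMART Stranded Total RNA kit. FastQC, HTSeq, DESeq2 and the build GRCm38 are named per the submitters' processing notes; versions, aligner, annotation and strand setting are not given in the sources used here. The values deposited by the authors are log2 of a scaled read count plus 1. Whole reads were recovered from them (within 3.56e-06 of a whole number up to 1000 reads) for depth, for a filter of at least 10 reads in at least 4 libraries, and for alternatives. Groups came from the titles. Names and positions are from GENCODE M21, with 4465 of 4484 identifiers matched to a symbol, and promoters from RefSeq.

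All 4273 genes that passed the filter were modelled on the log2 values as deposited, using limma 3.58.1 in R 4.3.3 (intensity trend, robust fit), with Benjamini-Hochberg adjustment of p over these genes and a threshold of 0.05. The rhythm was a 24 h cosine and sine with sex as a covariate. The other comparisons were sex with time as a factor, sex by rhythm, departure from the cosine, and libraries 49 to 60 against 1 to 48 within groups. The fits were checked on simulated data. Named were the 8 genes, the 2 genes most like each by Pearson r, and pathway and marker genes by list, those past a threshold and otherwise those of highest level; a few others (Ppcdc, Slc35b2, Gpr162, Eif4ebp1, Eif1, Bzw1, Crh, Fgfr3) were chosen after their values were seen, and some that passed between serial runs are given by count. The 7 pathway lists described were coenzyme A synthesis, heparan sulfate, tyrosine sulfation, molybdenum cofactor, kelch domains, orphan receptors and translation initiation; some items are not reported here. The members and lists were chosen with earlier results of these data known. Alternatives were limma voom on recovered reads, other scalings and filters, a replicate block, principal components as covariates, averaging of repeated animal numbers, and leaving out libraries 49 to 60 or each library in turn.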

Additional observations from a re-analysis of the deposited data

Results flagged for a closer look

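Of 96 sets of values (8 genes in 12 groups of time by sex), 4 held a library that stood apart from the others of its group by its gap relative to the range. Chance gives about 1 in 20. Hs3st1 was 7.08 in ZT14 female replicate 4, where the other libraries lay from 8.003 to 8.296, and its amplitude without that library was 0.27. Tpst2 was 7.94 in ZT10 female replicate 1 (others 8.66 to 8.75) and 7.71 in ZT14 male replicate 1 (others 8.39 to 8.60), with amplitudes of 0.25 and 0.24 without them. Marc2 was 11.01 in ZT2 female replicate 4 (others 10.40 to 10.46), with an amplitude of 0.21 without it.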

How the results depend on the processing

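The median amplitude of the 8 genes ran from 0.21 to 0.24 when each library was left out in turn. Genes with a 24 h rhythm over the table numbered 81, but 3 under scaling by library totals, 499 with the first 2 principal components as covariates and 50 without the libraries numbered 49 to 60 (74 to 96 without single libraries); the cause was not tested. Genes that differed by sex numbered 1, but 0 under library totals (28 at an unadjusted p under 0.05), 2 with the replicate block and 3 with principal components. Of the 8 genes 0 passed for sex, the interaction or the departure from a cosine under any alternative run (limma or limma voom). The sex difference of Ppcs turned to -0.0056 under library totals, -0.047 with repeated animal numbers averaged (37 samples) and -0.059 without libraries 49 to 60, and that of Klhdc9 to 0.021 in the last. Without single libraries they ran from -0.027 to 0.061 and from -0.071 to 0.028. Under library totals, libraries 49 to 60 against 1 to 48 gave 0.30 for Ppcs, 0.31 for Klhdc9, 0.25 for Hs3st1, 0.26 for Tpst2, 0.19 for Marc2, 0.24 for Gpr22, 0.39 for Eif5 and 0.57 for Arhgef15. The last 2 then passed (adjusted p 0.0138 and 0.00610, limma), while Marc2 (0.180) and Gpr22 (0.158) did not. The tests did not treat the serial runs as pairs, and the matches by run given above are a description. Only 46.4% of same-run pairs had an r of deviations over 0.1. Their mean r was 0.11, from -0.49 to 0.60 over 319 pairs, against -0.03 between runs. Of the 59 libraries 26 were nearest their own run, a hint from the data of a shared run effect. The replicate block gave 2 genes by sex over the table, called the same 7 of the 8 genes for rhythm and changed none of their other calls. Leaving the 6 most abundant genes out of the totals ended the rhythm call of Gpr22 alone, and averaging repeated animal numbers those of Ppcs and Gpr22. Few reads limit Klhdc9, Ppcs and Arhgef15.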

Other observations

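Other genes that passed for a 24 h rhythm with a peak from ZT0 to ZT12 were looked at after their values were seen. Map1lc3b, which encodes an autophagosome marker protein, had an amplitude of 0.10 ± 0.02 (SE, n = 59) at ZT6.59, and Hmgcs1, of cholesterol synthesis, 0.13 ± 0.02 at ZT6.85. St3gal5, which makes the ganglioside GM3, had 0.12 ± 0.03 at ZT10.8. Serpinb6a, a serine protease inhibitor gene, peaked at ZT1.10 with 0.17 ± 0.04, earlier than any of the 8 genes.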
